A study of Homo sapiens with 6 samples.

Results

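The transcripts of the NF-kB transcription factor family and of the genes it is best known to induce as its own brakes were measured in a human triple-negative breast cancer line made resistant to doxorubicin (MDA-MB-231-DR), with and without cyperotundone (CYT), a sesquiterpenoid of Cyperus rotundus. The members were chosen by name and number 10 of the 58302 genes in the table: the 5 subunit genes NFKB1, NFKB2, RELA, RELB and REL, the inhibitors NFKBIA, NFKBIE and TNFAIP3, and the targets BIRC3 and TNFAIP2. All 10 were found and all 10 passed the filter on low counts. Bulk RNA was sequenced from 3 control libraries of the resistant cells and 3 libraries of the same cells given CYT, which asks what the compound does to gene expression in resistant cells. The labels give no dose or time for CYT, and the resistant line is 1 line. According to the paper's methods, the resistant lines were kept in medium with doxorubicin at low concentration. The methods do not say whether it was present in the cultures that were sequenced. The depth, as the sum of counts over genes, was 17357053 for control 1, 17770102 for control 2 and 14050849 for control 3, and 14106017 for CYT 1, 13056270 for CYT 2 and 13423683 for CYT 3. In bulk RNA, a change in every cell and a change in the share of cells that express a gene cannot be told apart.

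NF-kB is a family of dimers built from p105/p50 (NFKB1), p100/p52 (NFKB2), p65 (RELA), RELB and c-Rel (REL). In resting cells, IkB proteins hold the dimers in the cytoplasm; the canonical arm frees mainly dimers with p65 when the IKK complex marks IkB-alpha (NFKBIA) for destruction, and the noncanonical arm processes p100 to p52, which pairs with RELB. The dimers then switch on their own inhibitors, among them NFKBIA, NFKBIE and the ubiquitin-editing enzyme A20 (TNFAIP3), and high NF-kB activity is a known feature of triple-negative breast cancer lines. RNA levels do not report the activity or location of the proteins, which were not measured here.

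The members did not move as a block. NFKBIA and RELA transcripts fell, by 4.25-fold and 3.61-fold, whereas TNFAIP3 rose 2.46-fold, so that the 2 classical feedback inhibitors NFKBIA and TNFAIP3 changed in opposite directions. In edgeR's quasi-likelihood test, 1 of the 10 members was called higher and 2 were called lower at an adjusted p under 0.05, beside 15.7% and 12.9% of the 15572 genes tested. This is 30% of the members against 28.6% of all genes in either direction, a share near the background. The median log2 fold change was -0.09 over the members and 0.01 over all genes tested. Without overlap between the TMM-normalized CPM (read counts scaled to a common library size) of the groups were 5 of the 10 members, NFKB1, RELA, REL, NFKBIA and TNFAIP3, beside 46.1% of all genes tested.

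**Figure D1:**
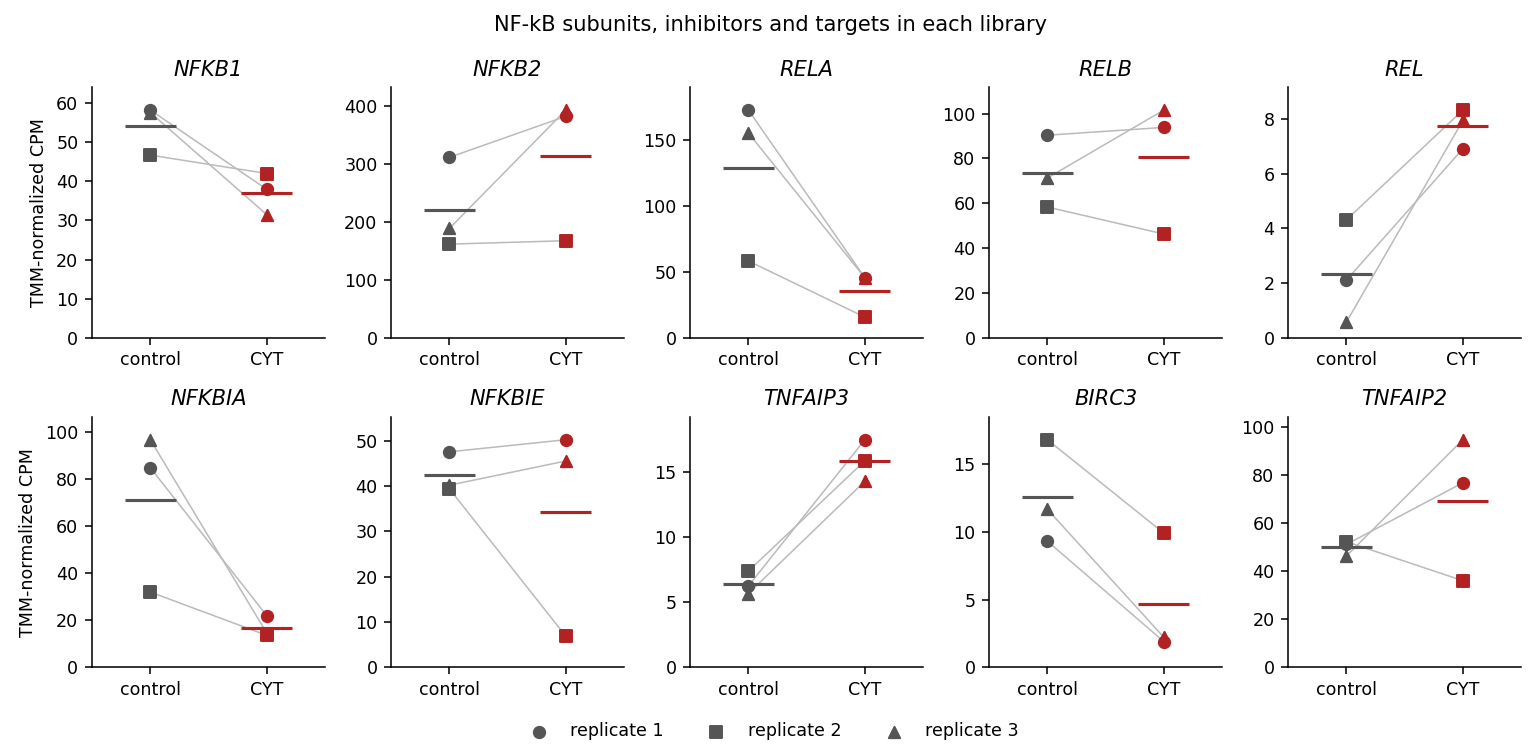
TMM-normalized CPM of each member (vertical axes, linear and from 0) in the control and CYT libraries; symbols mark the replicate number, grey lines join libraries of the same number and horizontal bars are group means (n = 3). RELA and NFKBIA lie lower and TNFAIP3 and REL higher in every CYT library than in any control library, and BIRC3 is lower in CYT within each number although the groups overlap.

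Replicate 2 stood apart in both groups, and its 2 libraries deviated together from their group means (r = 0.458 across genes). For replicates 1 and 3, the pairing by number is an assumption. Control 1 was closer to CYT 3 (0.303) than to CYT 1 (0.188), and control 3 to CYT 1 (0.201) than to CYT 3 (0.124). Library deviations from the mean of all 6 libraries followed the GC content of transcripts with a Spearman correlation across 14696 genes of -0.27 in control 2 and -0.58 in CYT 2, against 0.36, 0.20, 0.25 and 0.31 in control 1, control 3, CYT 1 and CYT 3. Results are therefore also given from a fit with the replicate number as a block, where this changed the call of a named gene, and without replicate 2 of both groups. With the block, 2 members were called higher (REL in addition) and 3 lower (BIRC3 in addition), beside 20% (3120) and 19.8% (3089) of all genes and 39.9% in either direction. The Spearman correlations of the library deviations with log2 transcript length were 0.085, 0.21 and 0.003 in control 1, 2 and 3. In CYT 1, 2 and 3 they were -0.18, 0.067 and -0.26.

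Among the subunits, RELA, the main activating subunit of the canonical arm, was the one called gene. It lies on chr11:65653596-65663094 (GRCh38, minus strand). Its CPM was 172, 58.2 and 155 in control replicates 1, 2 and 3 and 45.6, 15.7 and 45.5 in the CYT replicates. Replicate 2 was the lowest library of each group, and the highest CYT library lay below the lowest control. RELA was 3.61-fold lower with CYT (log2 fold change -1.85, SE 0.52, adjusted p = 0.0247). Within the numbered pairs the difference in log2 CPM was -1.92, -1.88 and -1.77. The call was lost without control 1 (adjusted p = 0.0817), control 3 (0.0772) or CYT 3 (0.0516), with log2 fold changes of -1.60, -1.72 and -2.03. An annotated gene on the opposite strand, AP001362.2, overlaps RELA exons. It is not among the genes with counts, so its own level is not known. Whether reads were counted by strand is not given in the sources used here.

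REL, which encodes c-Rel and is best known from lymphoid cells, was the least abundant member in control. It had 34, 81 and 8 counts in the control replicates and 98, 117 and 100 in the CYT replicates, or 2.11, 4.31 and 0.575 CPM against 6.91, 8.33 and 7.95 CPM. The CYT libraries were close together and above every control library, and the control libraries were spread over a wide range. The log2 fold change was 1.71 (SE 0.59, 95% confidence interval 0.39 to 3.03), which missed the threshold without the block (adjusted p = 0.0556) and passed it with the replicate block (1.99, SE 0.53, adjusted p = 0.0161). Without control 2 it passed as well (2.50, adjusted p = 0.0167). REL lies on chr2:60881521-60931610 (plus strand) and shares exonic sequence with AC010733.2, a noncoding gene annotated on the same strand, which had 54, 115 and 42 counts in control and 131, 226 and 10 in CYT. Reads in the shared stretch cannot be assigned to one gene, so the REL level is uncertain.

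The other subunits were not called. NFKB1, on chr4:102501329-102617302, had 58.2, 46.7 and 57.6 CPM in control and 37.9, 42.0 and 31.5 CPM in CYT. No CYT library reached the control range, and the groups differed by a log2 fold change of -0.54 (SE 0.28, 95% confidence interval -1.18 to 0.09, adjusted p = 0.178). NFKB2, the precursor of p52 on chr10:102394110-102402529, had 311, 161 and 188 CPM in control and 381, 167 and 392 CPM in CYT. Replicates 1 and 3 of CYT were the highest of the 6 libraries and CYT 2 lay among the controls (0.51, SE 0.40, 95% confidence interval -0.38 to 1.40, adjusted p = 0.365). RELB, the partner of p52, on chr19:45001430-45038198, had 90.3, 58.3 and 71.2 CPM in control and 93.8, 46.3 and 102 CPM in CYT, with CYT libraries both above and below the control range (0.14, SE 0.36, 95% confidence interval -0.67 to 0.94, adjusted p = 0.809). The sign of the RELB value turned without control 2 (-0.01) or CYT 3 (-0.03).

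The levels of the subunits were compared per length, as CPM per kb of merged annotated exons. NFKB2 was the most abundant subunit transcript in both groups, at 49.1 ± 17.8 CPM per kb in control and 69.9 ± 28.3 in CYT (SD, n = 3). RELB at 24.1 ± 5.31 and RELA at 23.5 ± 11.3 CPM per kb could not be ordered in control, where their libraries overlapped. In CYT, RELB stood at 26.5 ± 9.86 CPM per kb, and RELA at 6.51 ± 3.16 overlapped with NFKB1 at 5.93 ± 0.849. The RELA share of the summed CPM per kb of the 5 subunit genes was 22.5%, 14.5% and 27.5% in the control replicates and 6.37%, 4.57% and 6.18% in the CYT replicates. The NFKB2 share was 49.5%, 48.9% and 40.7% in control and 65.0%, 59.4% and 64.8% in CYT. Neither share overlapped between the groups. The shares are parts of the same sum, so a lower RELA level alone raises the NFKB2 share. The CPM per kb of NFKB2 itself overlapped between the groups. The ratio of NFKB2 to RELA per kb was 2.20, 3.38 and 1.48 in control and 10.2, 13.0 and 10.5 in CYT. The RELB share, 23.4% ± 2.48 in control and 24.2% ± 0.597 in CYT, overlapped between the groups.

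**Figure D2:**
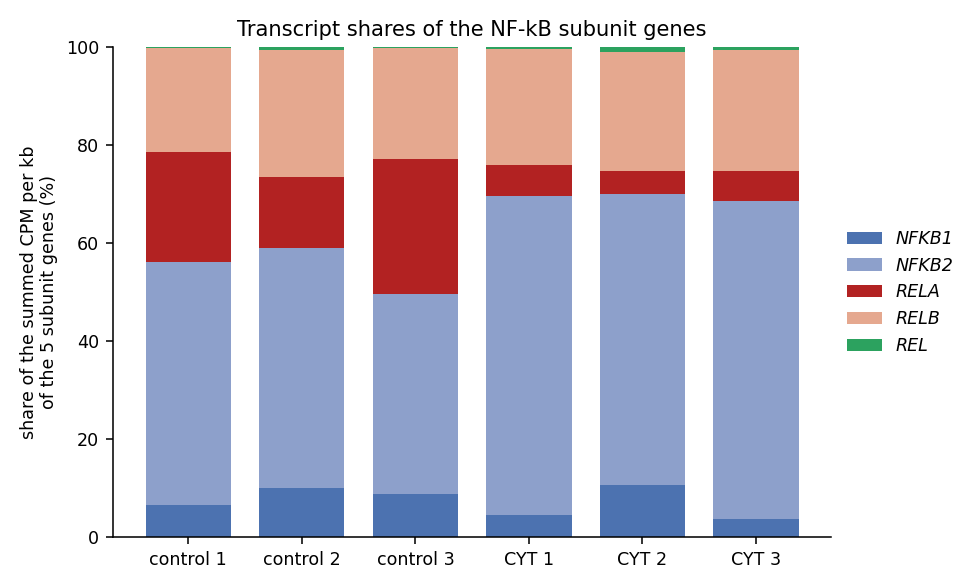
Share of each subunit gene (vertical axis, percent) in the summed CPM per kb of the 5 genes, 1 bar per library. RELA takes 14.5% to 27.5% in the control libraries and 4.57% to 6.37% in the CYT libraries, and NFKB2 is the largest part in all 6.

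Over all 10 members, the order per kb in control was NFKB2, NFKBIA, RELB, RELA, NFKBIE, TNFAIP2, NFKB1, BIRC3, TNFAIP3 and REL. Clear steps, where no library of one gene reached the next, lay between NFKBIE (16.4 CPM per kb) and TNFAIP2 (9.95), between NFKB1 (8.66) and BIRC3 (1.67), and between TNFAIP3 (1.28) and REL (0.177); all other neighbours overlapped. NFKBIA had 30.1 ± 14.5 CPM per kb in control and 7.07 ± 1.94 in CYT, where its libraries overlapped those of NFKBIE, next above it, and of RELA, next below it. TNFAIP3, at 3.15 ± 0.316 CPM per kb in CYT, stood apart from BIRC3 below it (0.622) and from NFKB1 above it.

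NFKBIA encodes IkB-alpha, the inhibitor that canonical signalling destroys and NF-kB itself makes anew. It lies on chr14:35401511-35404749 (minus strand). Its CPM was 85.0, 32.1 and 96.9 in the control replicates and 22.1, 13.7 and 14.6 in the CYT replicates. Control 2 was far below the other controls and still above every CYT library. NFKBIA was 4.25-fold lower with CYT (log2 fold change -2.09, SE 0.44, adjusted p = 0.00752), and of the members called it was the one whose call was kept under all 16 other fits, including the 6 that left out 1 library (adjusted p from 0.00437 to 0.0364). The ratio of RELA to NFKBIA per kb was 0.881, 0.787 and 0.695 in control and 0.896, 0.498 and 1.35 in CYT, and overlapped between the groups.

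TNFAIP3 encodes A20, which ends signalling by editing ubiquitin chains on RIPK1 and other adaptors. It lies on chr6:137867188-137883312 (plus strand), with 6.26, 7.40 and 5.68 CPM in control and 17.5, 15.9 and 14.3 CPM in CYT. The libraries of each group were close together and the groups were well apart. TNFAIP3 rose with a log2 fold change of 1.30 (SE 0.31, adjusted p = 0.0129); within the pairs the difference in log2 CPM was 1.46, 1.09 and 1.31. The call was lost without control 1 (1.26, adjusted p = 0.0537) or control 3 (1.19, 0.0678). AL357060.1, an antisense gene that overlaps TNFAIP3 exons, had 6, 10 and 1 counts in control and 50, 44 and 35 in CYT (log2 fold change 3.20, SE 0.61, adjusted p = 0.00467). Without strand, the reads of the 2 genes cannot be told apart. TNFAIP3 itself had 101, 139 and 79 counts in control and 248, 223 and 180 in CYT; the part of the antisense gene in them was not tested.

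NFKBIE, which encodes IkB-epsilon and lies on chr6:44258166-44265788, had 47.6, 39.4 and 40.2 CPM in control and 50.2, 6.90 and 45.5 CPM in CYT. A single library, CYT 2, was low, and CYT 1 and CYT 3 lay within or just above the control range. The log2 fold change was -0.31 (SE 0.58, 95% confidence interval -1.61 to 0.99, adjusted p = 0.724) and turned to 0.17 without CYT 2. NFKBIE transcripts have a GC content of 61.4%.

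The 250 bases before the RefSeq start are shown for 4 of the 6 members that carry matches to 1 motif, NFKBIA, which fell, TNFAIP3, which rose, and BIRC3 and REL, whose calls depended on the fit. The windows of NFKB1 and NFKB2, whose calls also depended on the fit, are not shown. RefSeq promoter windows (GRCh38.p14) were found for 8 of the 10 members, 12 windows in all, and were searched on both strands for the 10-base kappaB consensus, the DNA element that NF-kB dimers bind. It was present in 7 of the 12 windows and in at least 1 window of 6 members, NFKB1, NFKB2, REL, NFKBIA, TNFAIP3 and BIRC3. The windows of RELA and TNFAIP2 held no match, and no window was found for RELB and NFKBIE. Of all 35116 promoter windows of this length, 9.96% held a match and 1.72% held 2 or more, and 11.8% of 27305 genes had a match in any window. The members were chosen as NF-kB genes and known targets, so setting them beside all genes is no test. The windows of NFKBIA (chr14:35404750-35404999, minus strand), TNFAIP3 (chr6:137867009-137867258, plus strand), BIRC3 (chr11:102317234-102317483, plus strand) and REL (chr2:60881324-60881573, plus strand) follow, 5′ to 3′, with matches in capitals.
NFKBIA: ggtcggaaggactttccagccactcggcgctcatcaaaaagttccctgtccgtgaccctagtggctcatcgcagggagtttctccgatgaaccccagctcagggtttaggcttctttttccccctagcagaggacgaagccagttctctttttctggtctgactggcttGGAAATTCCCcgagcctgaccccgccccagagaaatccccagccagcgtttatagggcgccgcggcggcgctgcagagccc
TNFAIP3: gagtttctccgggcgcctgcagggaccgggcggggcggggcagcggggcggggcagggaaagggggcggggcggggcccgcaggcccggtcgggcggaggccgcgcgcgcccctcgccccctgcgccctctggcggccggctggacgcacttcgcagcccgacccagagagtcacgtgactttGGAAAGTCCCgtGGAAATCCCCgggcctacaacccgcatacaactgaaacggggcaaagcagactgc
BIRC3: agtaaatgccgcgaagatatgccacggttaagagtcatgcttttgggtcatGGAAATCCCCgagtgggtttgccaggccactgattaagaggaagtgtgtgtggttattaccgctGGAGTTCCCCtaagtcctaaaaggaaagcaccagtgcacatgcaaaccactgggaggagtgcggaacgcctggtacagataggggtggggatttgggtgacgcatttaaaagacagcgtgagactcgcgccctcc
REL: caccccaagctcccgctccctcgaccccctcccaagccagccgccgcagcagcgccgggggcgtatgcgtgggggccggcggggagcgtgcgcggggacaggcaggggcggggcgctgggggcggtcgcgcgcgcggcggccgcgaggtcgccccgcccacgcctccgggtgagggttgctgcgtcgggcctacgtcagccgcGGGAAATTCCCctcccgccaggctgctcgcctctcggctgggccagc
Distances are counted from the RefSeq start, which for TNFAIP3, BIRC3 and REL lies downstream of the start of the GENCODE locus given for the gene, so that the matches of TNFAIP3 and REL lie inside that locus. NFKBIA has 1 match, 72 to 81 bases before the start. TNFAIP3 has 2, at 58 to 67 and 46 to 55 bases, and BIRC3 has 2, at 190 to 199 and 126 to 135 bases. In REL, 2 matches on opposite strands overlap by all but 1 base. TNFAIP3 and BIRC3 both hold GGAAATCCCC, whereas TNFAIP3 rose and BIRC3 was lower with CYT in each pair. A match is a description of the sequence, and binding of NF-kB to these windows was not measured.

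BIRC3 encodes cIAP2, a ubiquitin ligase of the TNF receptor complex and a survival target of NF-kB, and lies on chr11:102317450-102339403. It had 9.30, 16.8 and 11.6 CPM in control and 1.90, 9.89 and 2.22 CPM in CYT. CYT 2 reached the control range and the other CYT libraries lay far below it, while within each numbered pair the CYT library was lower, by -2.21, -0.75 and -2.32 in log2 CPM. Without the block BIRC3 was not called (log2 fold change -1.42, SE 0.61, adjusted p = 0.109). It was called lower with the replicate block (-1.77, SE 0.39, adjusted p = 0.00743) and without CYT 2 (-2.62, adjusted p = 0.00199).

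TNFAIP2, a cytokine-induced gene with roles in membrane protrusions, lies on chr14:103123442-103137439. It had 51.3, 52.4 and 46.4 CPM in control and 76.9, 36.2 and 94.9 CPM in CYT. The control libraries were close together, CYT 1 and CYT 3 were above them and CYT 2 below. The log2 fold change of 0.47 (SE 0.37, 95% confidence interval -0.36 to 1.30) was not called (adjusted p = 0.371), and was 0.77 without CYT 2 (adjusted p = 0.0311).

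**Figure D3:**
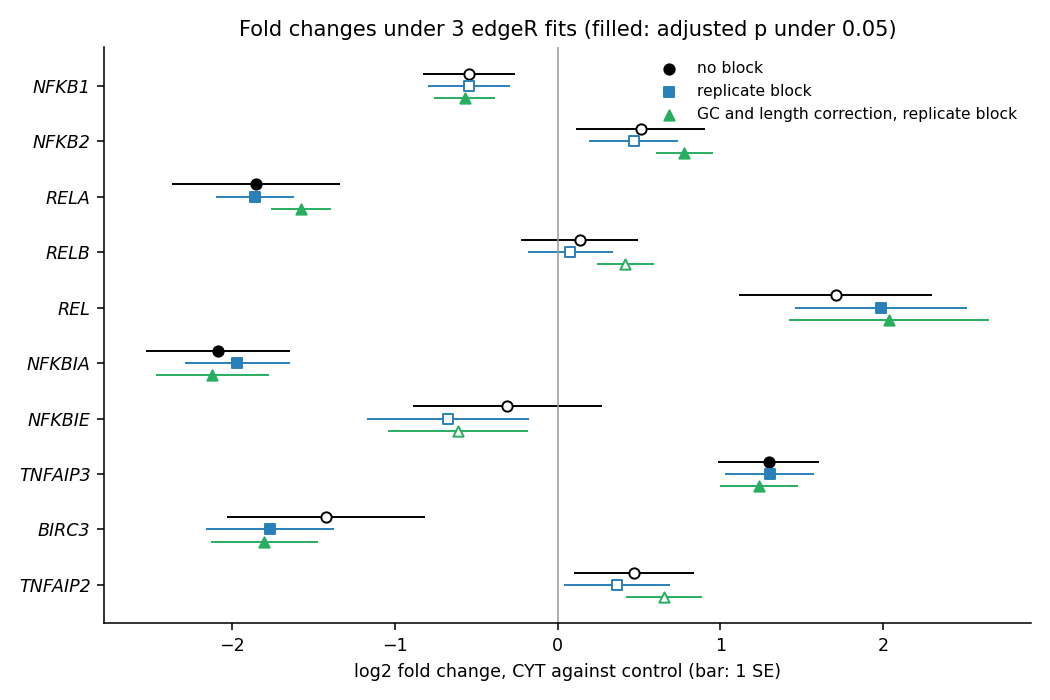
Log2 fold change of each member (horizontal axis, CYT against control; bars are 1 SE) in edgeR without a block (circles), with the replicate block (squares) and with a GC content and length correction and the block (triangles); filled symbols have an adjusted p under 0.05. RELA, NFKBIA and TNFAIP3 are filled in all 3 fits, BIRC3 and REL in the 2 with the block, and NFKB1 and NFKB2 in the corrected fit alone.

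In CYT, the GC-rich members were low in replicate 2, and in control this was seen for some of them. In CYT, replicate 2 differed from the mean of the other replicates by -2.77 in log2 CPM for NFKBIE, -1.53 for RELA, -1.24 for TNFAIP2, -1.21 for NFKB2 and -1.07 for RELB, the 5 members with a GC content from 60.3% to 65.0%. The difference was 2.19 for BIRC3 and 0.17 for REL, with a GC content of 37.4% and 39.5%. In control, it was -1.49 for RELA and -1.50 for NFKBIA, -0.58 for NFKB2 and -0.46 for RELB, near 0 for NFKBIE (-0.15) and TNFAIP2 (0.10), and 1.82 for REL and 0.68 for BIRC3. In a fit that had both the block and an offset for GC content and exon length, 3 members were called higher (NFKB2, REL and TNFAIP3) and 4 lower (NFKB1, RELA, NFKBIA and BIRC3), beside 21.1% and 24.1% of all genes and 45.2% in either direction. In this fit NFKB2 had a log2 fold change of 0.78 (SE 0.18, adjusted p = 0.0123) and NFKB1 of -0.57 (SE 0.19, adjusted p = 0.0438). The offset was fitted to the deviation of each library from the mean of all 6 libraries. It therefore also takes up differences between the groups that follow GC content or length. With the block alone the NFKB2 value was 0.47, and the RELA value was -1.86 against -1.58 with the offset. Leaving out replicate 2 of both groups left 2 libraries per group. In that fit 21.5% of all genes were called higher and 19.6% lower, or 41.0% in either direction. The log2 fold changes of NFKB1 (-0.71, adjusted p = 0.0303), BIRC3 (-2.31, 0.00265), REL (2.47, 0.012) and TNFAIP2 (0.84, 0.019) then passed the threshold. RELA (-1.82, 0.00134), NFKBIA (-2.28, 0.00147) and TNFAIP3 (1.44, 0.00651) kept their calls. The part of GC content in the values of replicate 2 was not tested.

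**Figure D4:**
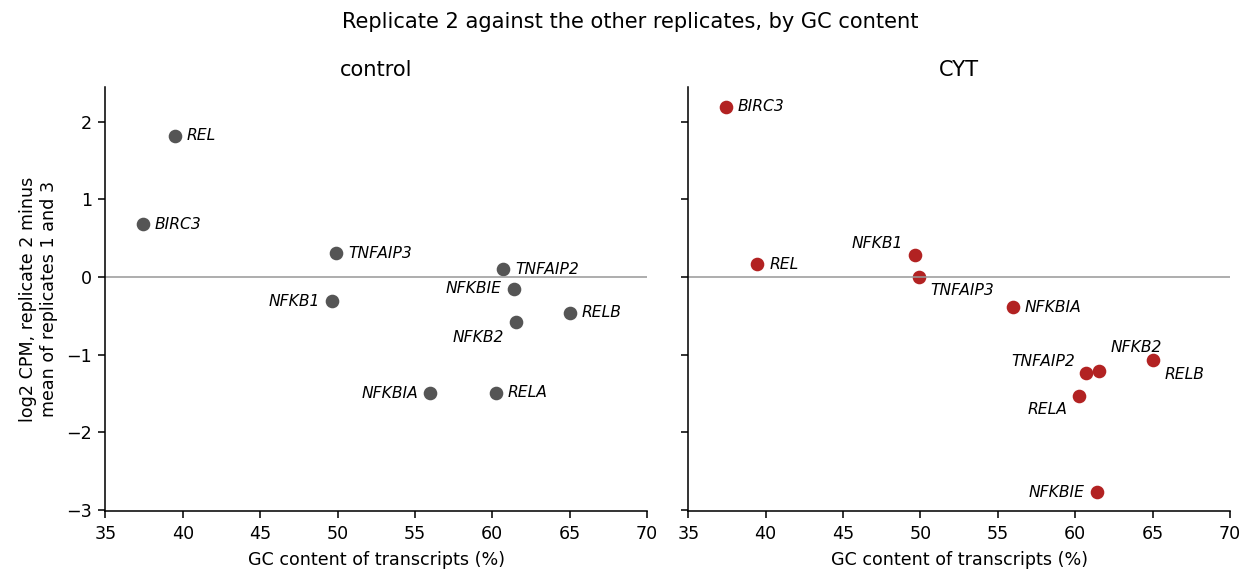
Difference of replicate 2 from the mean of replicates 1 and 3 (vertical axis, log2 CPM) against the GC content of the transcripts (horizontal axis, percent), for the control libraries (left) and the CYT libraries (right); each point is a member. In CYT the 5 members above 60% GC lie from -2.77 to -1.07, and BIRC3, at 37.4%, lies at 2.19.

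By likeness of pattern over the 6 libraries (Pearson r of log2 CPM, described without a test), the 3 genes nearest to TNFAIP3 were FAM111B (r = 0.998), TSPYL4 (0.998) and PIGG (0.995). Those nearest to NFKBIA were TULP3 (0.996), NFS1 (0.992) and TPM1 (0.991). Among the 11416 well-expressed genes compared for each, 371 had an r over 0.95 with TNFAIP3 and 146 with NFKBIA; the points share libraries and the difference between the groups.

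In the 97 other genes of the pathway, 85 passed the filter, and 14 were called higher and 14 lower, or 32.9% against 28.6% of all genes. Their median log2 fold change was -0.17. Leaving out each library in turn kept 12 of the 28 calls in all 6 fits, those of CYLD, PDLIM2, BCL2L1, SOD2, IER3, GADD45B, SDC4, CXCL3, CXCL10, LIF, CSF2 and PLAU. With the replicate block, 17 of these pathway genes were called higher and 22 lower, or 45.9% beside 39.9% of all genes in that fit. Without replicate 2 of both groups, 21 were called higher and 20 lower, beside 21.5% and 19.6% of all genes and 41.0% in either direction; of the genes named below, BCL3 (log2 fold change -0.85, adjusted p = 0.0241), TNIP1 (-0.84, 0.0324), LTBR (-0.80, 0.028), BCL2A1 (-0.82, 0.0447) and CD83 (0.68, 0.0345) then passed the threshold, and TRAF5 (-0.98, 0.0609) and IL1R1 (-2.03, 0.0713) no longer did.

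Other inhibitors also went both ways. Of the 4 remaining IkB family genes, NFKBIB (IkB-beta) and NFKBID rose with log2 fold changes of 1.11 (SE 0.31, adjusted p = 0.0259) and 1.32 (SE 0.43, 0.0457). NFKBIZ, a nuclear IkB, fell (-1.17, SE 0.39, 0.0486), and BCL3, a nuclear partner of p50 and p52, was not called (-0.99, SE 0.55, 0.202; -1.12 and 0.0143 with the replicate block). NFKBIB had 29.3, 23.6 and 40.1 CPM in control and 60.1, 63.1 and 76.9 CPM in CYT. These are weak calls: NFKBIB lost its call without control 1, control 2, CYT 1 or CYT 3 (adjusted p up to 0.0972), and NFKBID and NFKBIZ kept theirs without CYT 2 but not without any of the other 5 libraries (up to 0.167 and 0.153).

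The largest rise among the inhibitors was that of CYLD, the deubiquitinase that removes linear and K63-linked ubiquitin chains. It had 29.8, 48.3 and 31.6 CPM in control and 224, 462 and 215 CPM in CYT (log2 fold change 3.04, SE 0.41, adjusted p = 0.00119), with every CYT library far above every control library. Of the 11 genes of its list tested, TAX1BP1, an adaptor of A20, also rose (1.22, SE 0.39, 0.0428), and PDLIM2, a nuclear ubiquitin ligase for p65, fell (-2.94, SE 0.61, 0.00688) from 18.3, 13.6 and 20.5 CPM to 2.19, 0.498 and 4.13 CPM. Without CYT 3 the PDLIM2 value was -3.66. TAX1BP1 lost its call without control 1, control 3, CYT 2 or CYT 3 (adjusted p up to 0.164). The A20-binding TNIP1 (-0.88, SE 0.36, 0.0993; -0.89 and 0.0148 with the block) and RNF11 (-0.20, SE 0.56, 0.821) were among the 8 not called.

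In the signalling core, of 8 IKK and IKK-related genes, IKBKE fell (-1.41, SE 0.44, adjusted p = 0.0394), and CHUK (0.42, SE 0.36) and IKBKG (0.29, SE 0.33), which encode IKK-alpha and NEMO, were not called (adjusted p = 0.417 and 0.545). IKBKE lost its call without control 1, 2 or 3 or CYT 3 (adjusted p up to 0.121). Of 8 genes of the noncanonical arm, the receptor CD40 rose (1.19, SE 0.38, 0.0411) and the TWEAK receptor TNFRSF12A fell (-1.79, SE 0.50, 0.0255). TRAF2 (-0.57, SE 0.37, 0.278) and LTBR (-1.05, SE 0.47, 0.123; -1.24 and 0.0148 with the block) were not called. CD40 lost its call without control 2, control 3, CYT 1 or CYT 3 (adjusted p up to 0.167), and TNFRSF12A without control 1, control 3 or CYT 3 (up to 0.0789).

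Of 15 canonical adaptors and ubiquitin ligases, IRAK2 (-1.84, SE 0.43, adjusted p = 0.0118) and TRAF5 (-1.27, SE 0.37, 0.0298) fell, and IRAK1 (-0.48, SE 0.40, 0.394) and TRADD (0.07, SE 0.40, 0.911) were not called. IRAK2 lost its call without CYT 3 (0.0516), and TRAF5 without control 2, control 3, CYT 1 or CYT 3 (up to 0.0962). Of 10 receptors, 8 passed the filter; IL1RAP, the shared chain of IL-1 receptors, rose (1.90, SE 0.45, 0.012), and IL1R1 fell (-2.21, SE 0.65, 0.031) at a low level of 39, 25 and 10 counts in control and 7, 3 and 3 in CYT. IL1RAP lost its call without control 1 or control 3 (up to 0.0588), and IL1R1 without control 1, control 2, CYT 2 or CYT 3 (up to 0.146). TNFRSF1A (-0.69, SE 0.33, 0.15; -0.74 and 0.041 with the block) and TLR4 (-0.63, SE 0.45, 0.322) were not called.

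The ligands were scarce: 6 of 9, TNF among them with 4, 4 and 0 counts in control and 2, 9 and 0 in CYT, did not pass the filter. TNFSF12, which encodes TWEAK, fell (-1.43, SE 0.46, adjusted p = 0.0426) along with the receptor TNFRSF12A, and kept its call without CYT 2 but not without any of the other 5 libraries (up to 0.115). IL1A (0.00, SE 0.44, 0.998) and IL1B (-0.00, SE 0.55, 0.999) had log2 fold changes near 0.

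Targets of NF-kB were called in both directions. Of 15 intracellular and surface targets tested, 5 were called higher and 2 lower (46.7% in all, beside 28.6% of all genes; the difference was not tested). GADD45B (log2 fold change 2.24, SE 0.29, adjusted p = 0.001), SDC4 (1.70, SE 0.28, 0.00245), SOD2 (1.61, SE 0.30, 0.00429) and IRF1 (1.51, SE 0.35, 0.0115) were among those that rose. The early response gene IER3 fell from 1182, 910 and 1009 CPM to 238, 73.7 and 173 CPM (-2.68, SE 0.42, 0.00224), and the survival gene BCL2L1 fell from 316, 237 and 388 CPM to 74.9, 27.3 and 60.2 CPM (-2.53, SE 0.41, 0.00245). BCL2A1 (-0.75, SE 0.32, 0.108; -0.77 and 0.0498 with the block) and CD83 (0.64, SE 0.28, 0.112) were not called. With the block and the offset for GC content and exon length, the BCL2A1 value was -1.44 (0.00552), and without CYT 2 it was -0.94 (0.0345). IRF1 lost its call without control 3 (0.0539).

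Of 13 secreted targets tested, 3 were called higher and 4 lower (53.8%, beside the same 28.6%, and not tested either). The neutrophil chemokines CXCL8 (1.49, SE 0.41, adjusted p = 0.023) and CXCL3 (2.26, SE 0.43, 0.00448) rose. CXCL10 had 0, 0 and 3 counts in control and 46, 79 and 42 in CYT (adjusted p = 0.002), and since its control level was at the floor, no fold is given. The cytokines LIF (-3.00, SE 0.46, 0.00195) and CSF2 (-3.00, SE 0.44, 0.00171) and the protease PLAU (-2.12, SE 0.29, 0.00131) fell. LIF went from 119, 97.5 and 114 CPM to 21.8, 5.98 and 13.7 CPM. CSF1 (-0.54, SE 0.37, 0.297) and CXCL1 (-0.47, SE 0.34, 0.326) were not called. With the block and the offset for GC content and exon length, CXCL1, a neutrophil chemokine too, was called lower (-1.07, 0.0132), and the CSF2 value was -3.68. CXCL2, another neutrophil chemokine, was not called (-0.41, SE 0.71, 0.698, or -1.28 and 0.21 with the block and the offset). CXCL8 lost its call without control 1, control 3 or CYT 3 (up to 0.0893).

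**Figure D5:**
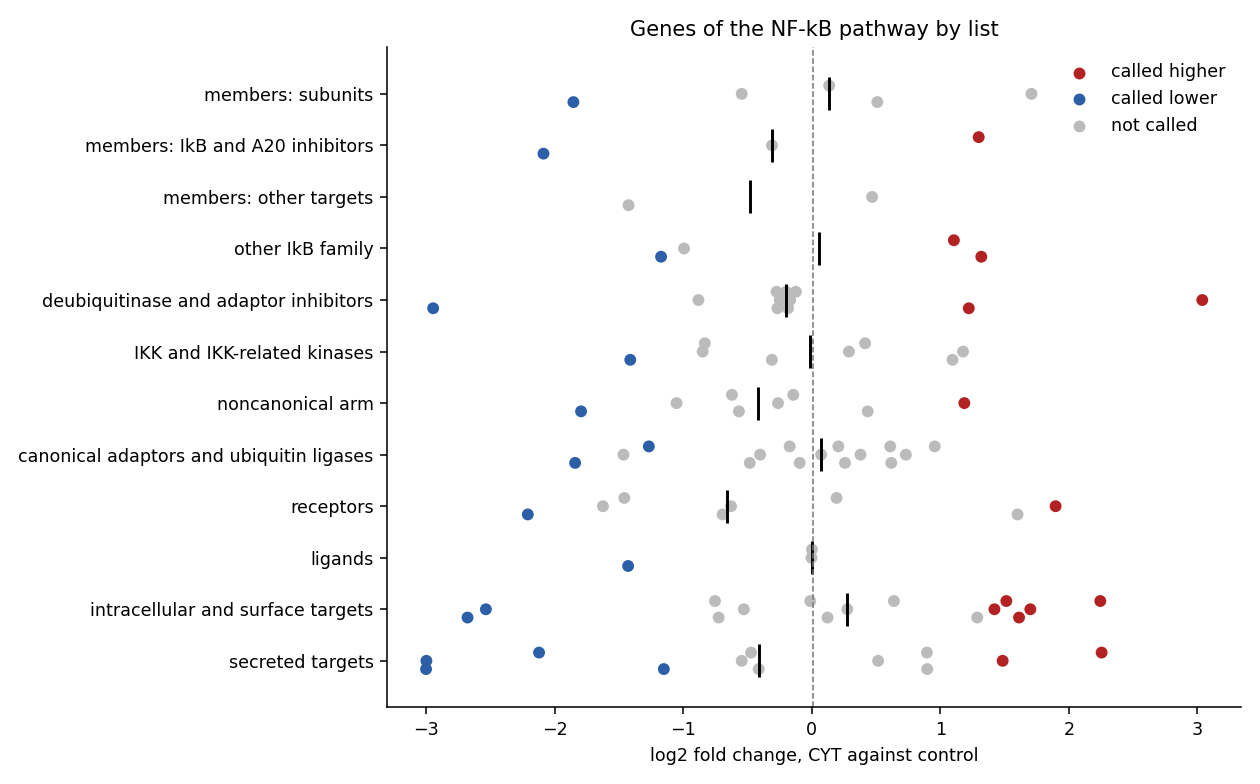
Log2 fold change (horizontal axis, CYT against control) of the tested members and pathway genes by list; red and blue points were called higher and lower, grey points were not called, black bars are list medians and the dashed line is the median of all genes tested. Calls in both directions appear in each list of other pathway genes except the kinases, the canonical adaptors and the ligands; CXCL10, called higher, has a control level at the floor and is not drawn.

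Markers were read as a check of the line. Genes known from basal B breast lines were present in every library, with summed CPM of 2833, 2413 and 2370 in control and 1452, 1366 and 1640 in CYT; MSN was the most abundant (log2 fold change -0.73, SE 0.30, adjusted p = 0.0929). EGFR (-2.65, SE 0.40, 0.00186) and AXL (-0.82, SE 0.27, 0.0444) fell and LOX rose (1.22, SE 0.39, 0.0427). With the replicate block MSN (-0.72, 0.0487) and CAV1 (-1.09, 0.00803) were also called lower, so that 4 of the 8 were lower and 1 higher, beside 19.8% and 20% of all genes in that fit. CAV1 was not called without the block (-1.03, SE 0.40, 0.0826) but was without replicate 2 of both groups (-1.08, 0.0460), without CYT 2 alone (-1.37, 0.0240) and with the offset for GC content and exon length alone (-1.22, 0.0108). AXL lost its call without any 1 of the libraries (up to 0.131) and LOX without any but control 2 (up to 0.160). Of the luminal genes, ESR1 had at most 4 counts and PGR at most 3 in any library. The luminal list summed to 446, 226 and 272 CPM in control and 57.5, 32.8 and 46.6 CPM in CYT. KRT19, its most abundant gene, fell from 417, 201 and 244 CPM to 38.5, 10.5 and 30.0 CPM (-3.45, SE 0.52, 0.00187), and SPDEF from 238, 134 and 157 counts to 0 in every CYT library. The other luminal genes tested were not called, GATA3 at -0.73 (SE 0.36, 0.163), FOXA1 at 0.42 (SE 0.56, 0.608) and ERBB3 at 0.56 (SE 0.33, 0.231, or 0.71 and 0.0420 with the offset for GC content and exon length alone). Leukocyte genes, which would matter for cytokine transcripts, summed to 25.8, 9.42 and 8.56 CPM in control and 19.5, 10.7 and 13.0 CPM in CYT, with the lysosomal gene CD68 the most abundant in all libraries but CYT 2, where CD14 was. The defining marker CD3E had 0 counts in every library and PTPRC at most 7. CD14 was called higher (2.43, SE 0.61, 0.0157), from 10, 4 and 19 counts to 51, 59 and 49. The call was lost without control 1 (0.0634), and without control 3 the value was 3.20. The part of the KRT19, SPDEF and CD14 changes in the values of the members was not tested.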

How the data were processed

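RNA from 3 control and 3 CYT-treated libraries of MDA-MB-231-DR cells was compared, with groups and replicate numbers taken from the sample labels. The authors deposited a whole-number count per gene and library, made from reads aligned with Hisat2 to hg38, and FPKM values beside it; FastQC 0.12.1 is named in the submitters' processing notes. The methods name Stringtie for FPKM and edge software for quantifying genes; the program that assigned reads to genes, its annotation and its strand setting are not given in the sources used here. Among 10158 genes that reached 50 counts in each library, the length implied by the deposited FPKM equalled, within 1 bp and for 92.1% of them, the summed length of distinct exons in GENCODE release 29 with overlaps counted repeatedly; this is 1.57 times the merged exon length in the median gene, and 3.28 times for RELA. Levels of different genes were therefore compared as CPM per kb of merged exons, and FPKM served for 2 alternatives and the choice of uncalled genes.

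Counts were tested with edgeR 4.0.16 in R 4.3.3 (TMM normalization, filterByExpr with a minimum count of 10, quasi-likelihood test, Benjamini-Hochberg adjustment over 15572 genes), and genes with an adjusted p below 0.05 were called. Log2 CPM used a prior count of 2. The test was tried on simulated counts first. Alternatives were DESeq2 1.42.0, limma 3.58.1 on log2(FPKM + 1) and log2(FPKM + 0.1), upper-quartile normalization, a replicate block, testing without the filter or with a mean CPM of 5 or more instead, leaving out each library and an absolute log2 fold change over 1. The correction for GC content and length, the same with the block, and leaving out replicate 2 of both groups were chosen after seeing the data.

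Libraries of the same number deviated together from their group means, with correlations across genes of 0.188, 0.458 and 0.124, all above the limit of 0.1 set for calling libraries paired. The pairing rests on the numbers in the labels and this check. Control 1 with CYT 3 (0.303) and control 3 with CYT 1 (0.201) also passed the limit. Both were closer than same-numbered pairs 1 and 3, so the check cannot establish those pairs. The labels do not say whether the replicates were separate cultures, and the methods speak of independent experiments in general without naming the sequencing, so p-values measure the spread between these libraries, which may be technical. Replicates differed by more than sampling noise (lowest chi-square per gene of any pair 25.2). With 3 libraries a group, an exact permutation test could not reach a p below 0.1 and was not used.

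The members and gene lists were chosen with earlier results of these data known. All members were named and, from each pathway list, up to 6 called genes with the largest absolute log2 fold change and up to 2 uncalled genes with the highest mean FPKM in control; AC010733.2, AL357060.1 and AP001362.2 are named for overlapping a member, and the marker genes after their values were seen. CXCL2 was named outside this rule, as another neutrophil chemokine. Promoter sequences came from RefSeq (GRCh38.p14), and loci from GENCODE release 29. One marker gene is not reported here.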

Additional observations from a re-analysis of the deposited data

How the results depend on the processing

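Of 160 values of the members' log2 fold changes under 16 other fits, 127 kept their direction and their side of the threshold, 5 fell short of it, 24 newly passed it and 4 changed sign. NFKBIA was called in all 16. With upper-quartile normalization the median over all genes moved on the log2 scale from 0.01 to 0.16, a shift that applies to every value below under this setting. The causes were not tested.

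Members called higher numbered 1, and 2 with upper-quartile normalization, without the filter, with a mean CPM of 5 or more, with the replicate block, with DESeq2 and with limma on log2(FPKM + 1) or log2(FPKM + 0.1); 4 with the GC content and length correction, 3 with it and the replicate block, 3 without replicate 2 of both groups, and from 0 to 2 when 1 library was left out. Members called lower numbered 2, and 3 with the replicate block, 4 with the correction, with or without the block, and without replicate 2 of both groups, and from 1 to 3 when 1 library was left out. Other pathway genes called higher and lower numbered 14 and 14, and ranged from 7 to 17 and from 6 to 17 when 1 library was left out; they numbered 17 and 22 with the replicate block, 20 and 24 with the correction, 20 and 23 with both, and 21 and 20 without replicate 2 of both groups.

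The share of all genes called moved with the setting too. It was 15.7% higher and 12.9% lower, and 18.5% and 10.4% with upper-quartile normalization, 9.20% and 6.81% without the filter, 12.8% and 12.2% with a mean CPM of 5 or more, 20% and 19.8% with the replicate block, 18.8% and 15.1% with DESeq2, 15.2% and 13.0% with limma on log2(FPKM + 1), and 15.7% and 12.7% on log2(FPKM + 0.1). With the correction it was 22% (3414 genes) and 25.1% (3894), or 47.0% in either direction beside 51.8% of the other pathway genes, with both 21.1% and 24.1% (45.2% beside 50.6%), without replicate 2 of both groups 21.5% and 19.6% (41.0% beside 48.2%), and from 10.3% to 18.6% and from 7.36% to 17.0% without 1 library. Of all genes, 1464 were called higher at a mean CPM of 5 or more; 3089 were called lower with the replicate block, 3894 with the correction, 3745 with both, 3101 without replicate 2 of both groups and from 1208 to 2750 without 1 library.

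REL passed the threshold with upper-quartile normalization (log2 fold change 1.85, adjusted p = 0.0424), no filter (1.63, 0.043), a mean CPM of 5 or more (1.81, 0.0498), the replicate block (1.99), DESeq2 (1.75), limma on log2(FPKM + 1) (0.45) and log2(FPKM + 0.1) (1.47), the correction (1.92), both (2.04) and without replicate 2 (2.47); its values without 1 library ran from 1.24 to 2.50. BIRC3 passed with the replicate block (-1.77), the correction (-1.68), both (-1.81) and without replicate 2 (-2.31), and ran from -2.62 to -1.06 without 1 library. NFKB1 passed with the correction (-0.57), both (-0.57) and without replicate 2 (-0.71), NFKB2 with the correction (0.77) and both (0.78), and TNFAIP2 with the correction (0.63) and without replicate 2 (0.84), from 0.20 to 0.77 without 1 library. Without 1 library, RELA ran from -2.21 to -1.49, TNFAIP3 from 1.19 to 1.40, RELB from -0.034 to 0.41 and NFKBIE from -0.70 to 0.17 (0.16 without replicate 2 of both groups). The replicate block changed no other call of a member.

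Of the pathway genes named by the rule above, 4 uncalled ones changed sign. CXCL2, named outside it, ran from -1.62 to 0.28 under the other fits. Without 1 library RNF11 ran from -0.89 to 0.56, TRADD from -0.15 to 0.41, IL1A from -0.20 to 0.21 and IL1B from -0.75 to 0.30. TRADD was -0.036 with the replicate block, -0.019 with limma on log2(FPKM + 1) and -0.027 on log2(FPKM + 0.1). IL1A was -0.071 without the filter, -0.0007 with the replicate block, -0.40 with the correction and -0.46 with both. IL1B was 0.15 with upper-quartile normalization and 0.023 with DESeq2. At the counts of REL, IL1R1, CXCL10 and the ligands, depth limits what can be seen.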
